A study of Gallus gallus with 18 samples.

Results

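This account covers 62 chicken genes that were already transcribed in proliferating erythroblasts and had 8 times that level or more once the cells were induced to differentiate. They were chosen from 17108 Ensembl genes by their mean CPM (counts per 1e+06 reads on genes). A gene had to have at least 1 CPM in proliferating cells, at least 10 CPM in induced cells, at least 8 times as much in induced as in proliferating cells, and less in lymphoid cells than a fraction of 1 in 4 of the induced level. These limits were met by 64 genes, or 0.374% of all genes. The alpha-type globin gene HBZ and its neighbour TMEM8A were among them and were set aside, which leaves the 62. The limits used the levels of all 3 cell types, so the difference between induced and proliferating cells is how the genes were found and is given as a description without a test.

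Total RNA without ribosomal RNA was sequenced from 2 independent biological replicates of each cell type. HD3dif cells are HD3 erythroblasts kept for 14 h at 42 °C in 20 µM iso-H-7, an isomer of the protein kinase inhibitor H-7, with 10 mM HEPES. HD3pr cells are the same line, proliferating at 37 °C without these agents. DT40 cells are a lymphoid line grown at 37 °C from a bursal lymphoma induced by avian leukosis virus. HD3 is a single clone, A6 of line LSCC, transformed by avian erythroblastosis virus, and both HD3 states carry that virus. By the paper's methods, induction was also done in air alone, while the other cultures had added carbon dioxide. The kinase inhibitor, the buffer, the gas, the warmer incubation and the differentiation itself came together. Their parts in a level cannot be told apart. In bulk RNA, a smaller share of cells of a kind and less RNA per cell cannot be told apart either.

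Erythroid differentiation turns a dividing precursor into a cell given over to haemoglobin. As background, the precursor leaves the cell cycle, raises globin, haem and membrane skeleton genes from a low primed level, and closes down much of the rest of its transcription. Avian red cells keep their nucleus through this process. Genes that are transcribed weakly in the precursor and strongly in the induced cell are therefore of interest as a group beside genes that are first switched on by induction.

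The deposited counts name genes by Ensembl identifier alone, and the reference gene table at hand gave a symbol to 0 of them. The members are therefore referred to here by their rank in HD3dif, with identifiers for the member ranked first by level and the member ranked first by fold, and none is given a function. HBZ and TMEM8A could be identified because the counts of just 1 identifier each matched the values that the study lists for them. HBZ marks erythroid cells, but it was found by its counts in labelled libraries and met the limits above, so it cannot check the labels. No other marker of a cell type could be checked. HBZ had 1000 and 1163 reads in HD3dif, 180 and 133 reads in HD3pr, and 0 and 0 reads in DT40. Its level was 9.48 times as high in HD3dif as in HD3pr, and that of TMEM8A, with a mean of 953 CPM in HD3dif, 80.5 CPM in HD3pr and 11.0 CPM in DT40, 11.8 times as high. Both met the same limits as the 62 genes described next, so a fold of at least 8 was set by the choice.

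Reads on genes numbered 20100063 to 24054973 per library in HD3dif, 29784807 to 30576844 in HD3pr and 28726204 to 33433279 in DT40. Reads that the counting classed as matching no gene made up 46.3 ± 0.502% of all reads in HD3dif, 33.7 ± 0.519% in HD3pr and 27.8 ± 1.29% in DT40 (mean ± SD, n = 2). A further 15.5 to 21.9% of all reads per library aligned to several places, and 0.192 to 0.398% matched several genes. These reads were not counted to a gene either. The share matching no gene moves with the cell state, and its part in the levels below was not tested.

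Together the 62 genes took 0.931 ± 0.0149% of the reads on genes in HD3dif, against 0.0550 ± 0.000747% in HD3pr and 0.0208 ± 0.000540% in DT40 (mean ± SD, n = 2). Their summed level was 16.9 times as high in HD3dif as in HD3pr, and 2.64 times as high in HD3pr as in DT40. The sum was uneven, since the 5 most abundant members held a mean of 55.4% of the members' reads in HD3dif. The 5 members highest in each library of the other cell types, which are not the same 5 genes, held a mean of 50.8% in HD3pr and 50.9% in DT40.

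The median member had a mean level of 47.0 CPM in HD3dif, 2.87 CPM in HD3pr and 0.811 CPM in DT40. In HD3dif 17 members reached 100 CPM or more, and the levels ran from 10.4 to 1966 CPM. In HD3pr 1 member reached that level, 12 members had 10 to 100 CPM and 49 had less than 10 CPM. In DT40 no member was above 30.7 CPM, 29 members had 1 CPM or more and 33 had less than 1 CPM. Both HD3dif libraries were above all 4 other libraries for each of the 62 members. The limits on the means largely set this, so nothing is read from it.

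**Figure D1:**
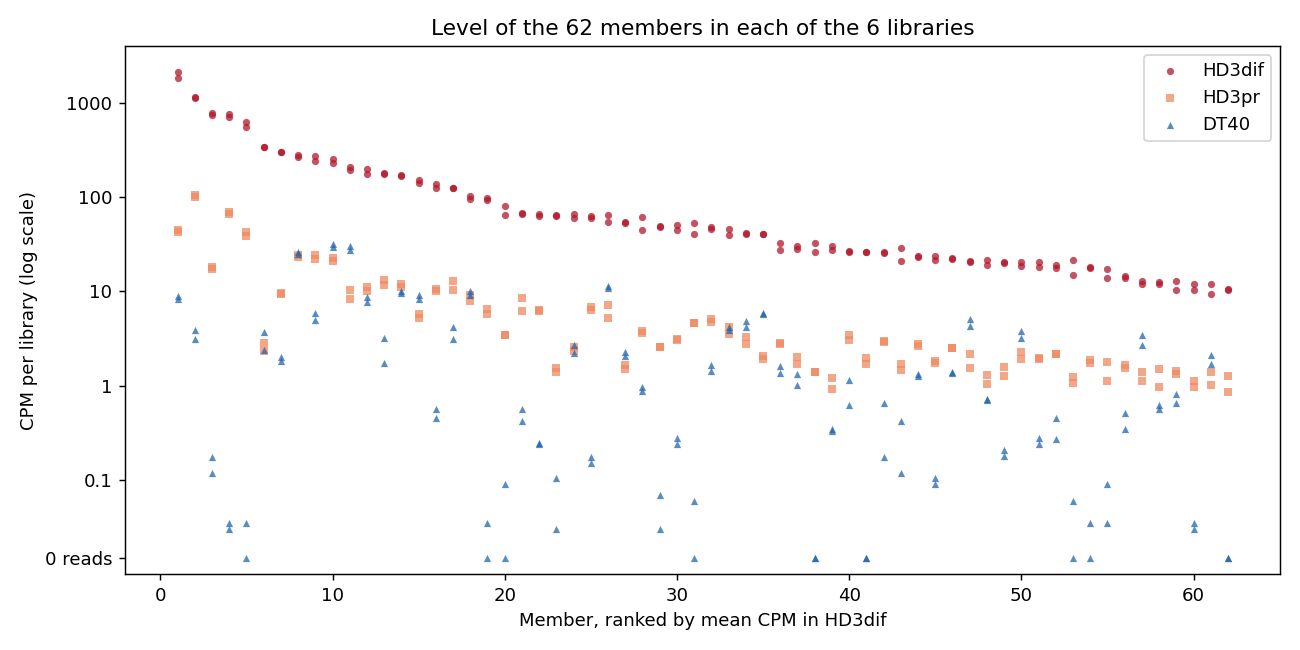
CPM of each of the 62 members (log scale) in the 2 HD3dif, 2 HD3pr and 2 DT40 libraries, with members ordered by their mean CPM in HD3dif and counts of 0 drawn at the bottom of the axis. Single libraries run from 2091 down to 9.30 CPM in HD3dif and from 105 down to 0.850 CPM in HD3pr, as bands that follow the ranking, while the DT40 libraries scatter below HD3dif down to 0 reads.

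The most abundant member, ENSGALG00000028273, had 2091 and 1842 CPM in HD3dif, 42.9 and 44.5 CPM in HD3pr and 8.29 and 8.85 CPM in DT40. The 3 cell types did not overlap, and the mean was 45.0 times as high in HD3dif as in HD3pr (41.4 to 48.8 over the pairs of libraries). It stood 25th from the top among all genes with reads in HD3dif (rank 25) and at rank 4233 in HD3pr. In DT40 it was low but present, with 238 and 296 reads.

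The member ranked 2 had 1150 and 1115 CPM in HD3dif, 101 and 105 CPM in HD3pr and 3.13 and 3.86 CPM in DT40. It was the member with the highest level before induction, at rank 2257 of all genes in HD3pr and rank 72 in HD3dif. Its fold of 11.0 was below the median fold of the members.

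The members ranked 3, 4 and 5 were close to silent in DT40. The member ranked 3 had 735 and 776 CPM in HD3dif and 17.0 and 18.0 CPM in HD3pr, against 5 and 4 reads in DT40. The member ranked 4 had 753 and 697 CPM in HD3dif and 66.7 and 69.4 CPM in HD3pr, with 1 read in each DT40 library. The member ranked 5 had 546 and 621 CPM in HD3dif and 42.5 and 39.0 CPM in HD3pr, against 1 and 0 reads in DT40. These 3 genes share near absence from the lymphoid line, but their folds over HD3pr were unlike, at 43.1, 10.7 and 14.3.

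The largest fold belonged to ENSGALG00000003594, ranked 6 in HD3dif. It had 342 and 339 CPM in HD3dif, 2.35 and 2.82 CPM in HD3pr and 2.40 and 3.68 CPM in DT40. The mean was 131 times as high in HD3dif as in HD3pr (120 to 145 over the pairs of libraries), while the HD3pr and DT40 libraries overlapped. Unlike the members ranked 1 to 5, this gene was not set apart from DT40 before induction.

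Among the first 10 members by level, the member ranked 7 had 297 and 303 CPM in HD3dif, 9.35 and 9.54 CPM in HD3pr, and 1.85 and 2.00 CPM in DT40, and its fold over HD3pr was 31.8. The member ranked 9 had 239 and 271 CPM in HD3dif, 21.9 and 24.2 CPM in HD3pr, and 4.91 and 5.89 CPM in DT40, for a fold of 11.1. These 2 genes were close in level and far apart in fold. Large folds were also found lower in the order of levels. The member ranked 23 had 62.8 and 65.2 CPM in HD3dif and 1.54 and 1.41 CPM in HD3pr, a fold of 43.4, with 3 and 1 reads in DT40. The member ranked 27 had 54.7 and 53.1 CPM in HD3dif, 1.67 and 1.51 CPM in HD3pr, and 2.05 and 2.27 CPM in DT40, and its fold was 33.9. These are the 3rd and 5th largest folds (ranks 3 and 5 by fold), and both genes were near the minimum of 1 CPM in HD3pr.

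The folds ranked 7 to 9 belonged to members spread over a range of levels. The member ranked 39 by level had 30.1 and 27.7 CPM in HD3dif, 0.916 and 1.21 CPM in HD3pr, and 0.348 and 0.329 CPM in DT40, a fold of 27.2 over HD3pr. The member ranked 15 had 141 and 151 CPM in HD3dif, 5.72 and 5.27 CPM in HD3pr, and 8.22 and 9.15 CPM in DT40, a fold of 26.6. The member ranked 24 had 65.6 and 59.7 CPM in HD3dif, 2.55 and 2.35 CPM in HD3pr, and 2.72 and 2.24 CPM in DT40, a fold of 25.6. Of these 3, the first had both HD3pr libraries above both DT40 libraries, the second had them below, and in the third they overlapped.

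Folds of HD3dif over HD3pr ran from 8.08 to 131 with a median of 11.5. They were below 10 for 17 members, from 10 to 16 for 29, from 16 to 32 for 11, and 32 or more for 5. The 3 members nearest the limit on its inner side had folds of 8.08, 8.40 and 8.40, and the 3 nearest on its outer side, which met all other limits, had folds of 7.96, 7.89 and 7.84. The outer 3 had 23.2, 48.7 and 264 CPM in HD3dif, so genes of high level also lie just past the limit. For scale, edgeR's test called 12.0% of the 10898 genes tested higher in HD3dif than in HD3pr and 18.6% lower, at the limits given further on, and 40.0% higher and 39.3% lower at an adjusted p below 0.05, and nothing is read from this for the members, since the contrast chose them. In 55 of the 62 members every HD3dif library was at least 8 times as high as every HD3pr library, and in the others the lowest pair was 6.62-fold.

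**Figure D2:**
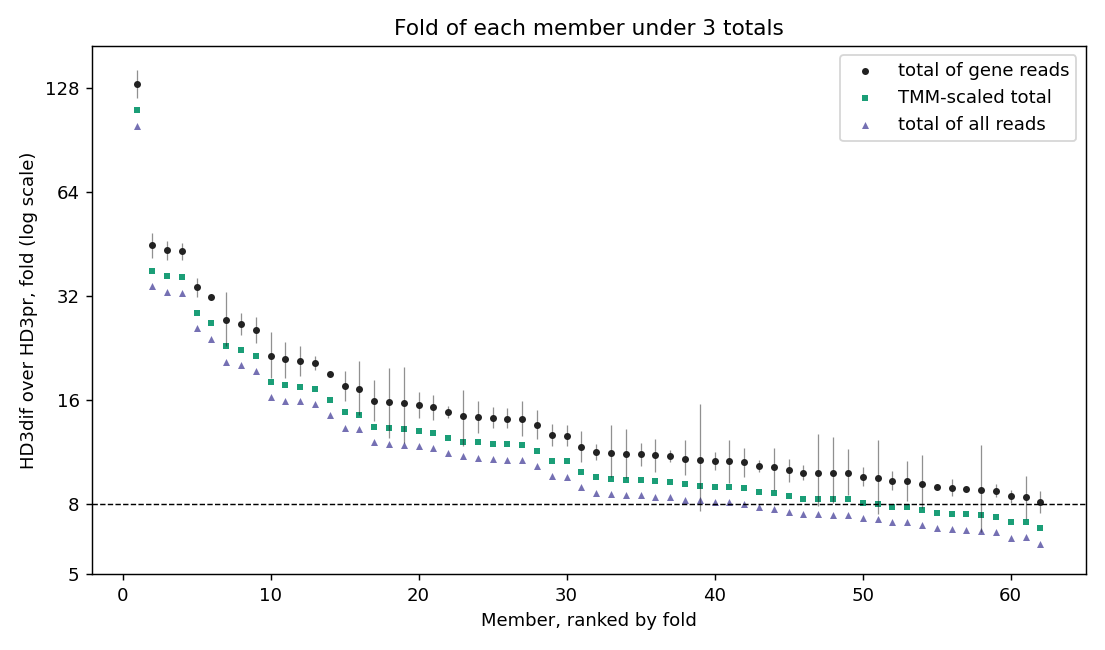
Fold of mean HD3dif over mean HD3pr level (log scale) for the 62 members, ordered by fold, with the total of gene reads, the TMM-scaled total and the total of all reads as the scale. Vertical lines span the lowest to the highest pair of libraries with gene reads as the scale, and the dashed line marks the 8-fold limit, above which 62, 50 and 42 members lie under the 3 totals.

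How many genes count as 8-fold depended on the total that counts are divided by. With TMM (trimmed mean of M-values) scaling, which evens out the bulk of the genes between libraries, the members' median fold was 9.70 and 50 of 62 kept at least 8-fold. With all reads as the total, reads without a gene included, the median fold was 8.76 and 42 of 62 kept it. With the total of gene reads the median of all tested genes itself lay 0.28 above 0 on the log2 scale between HD3dif and HD3pr, and with TMM scaling at 0.03. The smallest fold of any member was 6.80 with TMM scaling and 6.13 with all reads.

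The same limits were next applied to 1 replicate of each cell type, and the genes so chosen were read in the replicates that the choice had not used. Replicate 1 chose 67 genes with a median fold of 11.3, and in replicate 2 their median fold was 11.6, with 55 of 67 at 8-fold or more and 67 at 4-fold or more. Replicate 2 chose 64 genes with a median fold of 12.3, and in replicate 1 their median fold was 12.1, with 57 of 64 at 8-fold or more and 63 at 4-fold or more. The lowest folds in the unused replicates were 4.90 and 3.97. Of these 67 and 64 genes, 58 and 56 are among the 62 members. The median fold of each set was thus similar in the replicates not used, while single genes fell below 8-fold there. These were not only genes next to the limit, since 1 gene chosen in replicate 1 at 10.6-fold had 5.65-fold in replicate 2. Every library entered the choice of the 62 members, so this does not test them.

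**Figure D3:**
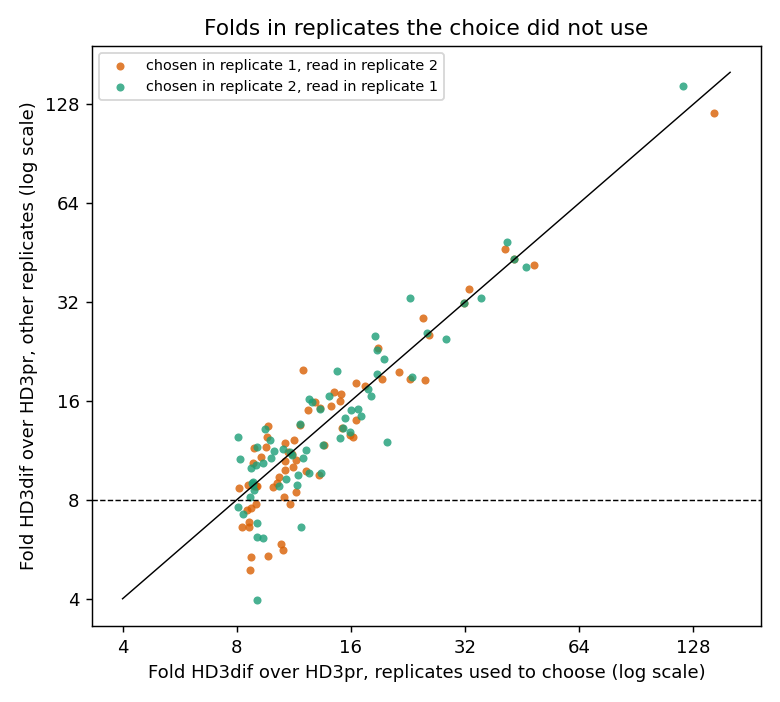
Fold of HD3dif over HD3pr (log scales) of the 67 genes chosen in replicate 1 and read in replicate 2, and of the 64 genes chosen in replicate 2 and read in replicate 1. The solid line marks equal folds and the dashed line 8-fold, which 55 and 57 of the genes reach in the replicates not used for the choice.

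Replicates of the members lay close together where levels were high. The median size of the log2 ratio between the 2 replicates was 0.097 in HD3dif, 0.13 in HD3pr and 0.22 in DT40, against 0.10, 0.073 and 0.10 for all tested genes in the same order. The largest was 0.53 in HD3dif and 0.70 in HD3pr. In DT40 it was 1.92 among the 53 members with reads in both libraries, and many of these members had few reads there.

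The limits set HD3pr and DT40 each against HD3dif and not directly against one another. Together they still cap how far DT40 can lie above HD3pr at a given fold, while HD3pr over DT40 has no cap. The comparison of HD3pr with DT40 therefore describes the levels before induction and is partly set by the limits. It was tested with edgeR's quasi-likelihood test over the 10898 genes that passed 1 CPM in 2 or more of the 6 libraries, and all 62 members are among these because of their HD3dif level. The limits of the study were used, which call a gene changed where its log2 fold change exceeds 0.6 in size and its p, adjusted by Benjamini and Hochberg, is under 1e-07. By this test 28 members (45.2%) were higher in HD3pr than in DT40 and 2 (3.23%) were lower, against 23.0% higher and 18.3% lower among all genes tested. The comparison is not free of the choice of members, since HD3pr had to reach 1 CPM and DT40 had to stay under HD3dif/4. The limit on DT40 alone removed 8 genes, all with a mean at least 2.23 times as high in DT40 as in HD3pr, while the 8-fold limit keeps HD3pr low, so the counts in each direction are partly set by the limits. Among the 9356 tested genes with at least 1 CPM in HD3pr, 26.8% were higher and 15.7% were lower. Among the 1797 of these that also met the limit on DT40, 79.2% were higher and 0.111% (2 genes) lower. Those 2 are the 2 lower members themselves, so this background gives no separate share of lower genes. The members' share of higher genes thus lay above or below the background according to which limits the background shared, and nothing particular to them is read from it. The median log2 fold change of the members was 2.19, against 0.08 for all genes tested and 0.16 for those with at least 1 CPM in HD3pr. Neither of these backgrounds was cut by the limit on DT40, so nothing particular to the members is read from the median either. Without HD3dif replicate 2 the numbers were 18 higher and 1 lower, and with only the 2 cell types compared in the fit they were 17 higher and 1 lower of 58 tested (29.3% and 1.72%), against 20.3% and 18.3% of all genes in that fit. The count of 2 lower members was also 1 without HD3dif replicate 1, either HD3pr replicate or DT40 replicate 2.

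On plain CPM both HD3pr libraries were above both DT40 libraries for 46 members (74.2%), against 43.8% of all genes tested. They were below both for 13 members (21.0%), against 47.3%, and overlapped for 3. These backgrounds were not cut by the limits. Among the tested genes that met the HD3pr minimum and the limit on DT40, members included, the shares were 97.0% above and 1.56% below. The mean on plain CPM was higher in DT40 than in HD3pr for 16 members. For 3 of these the sign was the other way in the edgeR fit, which uses TMM scaling. The 8-fold limit keeps HD3pr low, and no share over all genes was taken for this count. Nothing particular to the members is therefore read from it. The name erythroblast genes does not mean that every member was higher in HD3pr than in the lymphoid line.

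The 28 genes higher in HD3pr had a median of 64.3 CPM in HD3dif, 5.54 CPM in HD3pr and 0.250 CPM in DT40. They included the 5 most abundant members and carried 74.9% of the members' summed level in HD3dif. In 21 of them the DT40 level was below 1 CPM. Their log2 fold changes ran from 1.78 to 11.1. The largest was that of the member ranked 5, which had 1 and 0 reads in DT40, so its size is uncertain. It ran from 10.0 to 13.2 over the 14 fits run. The limits that chose the members used these same HD3pr and DT40 levels, so p-values of single members, here and below, are given as a description. For ENSGALG00000028273, HD3pr was higher than DT40 by 2.48 (SE 0.077, adjusted p = 5.3e-17, edgeR quasi-likelihood), in 2 of 2 HD3pr libraries. The member ranked 2, at 5.00 (SE 0.076, adjusted p = 3.9e-22 by the same edgeR test), showed a wider gap from a lower DT40 level.

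Some members were not detected in DT40. The members ranked 38, 41 and 62 had 0 reads in both DT40 libraries, and a further 14 members had 1 to 10 reads over both. A count of 0 allows up to 3 reads per library, which is a mean of 0.0971 CPM. Against that floor the member ranked 38 was at least 302-fold higher in HD3dif and at least 14.5-fold higher in HD3pr than in DT40, and the member ranked 41 at least 268-fold and at least 18.9-fold. The member ranked 62 was at least 107-fold higher in HD3dif and at least 11.0-fold higher in HD3pr, with 26 and 38 reads in the HD3pr libraries. The members ranked 38 and 41 were higher in HD3pr by the test, in 7 and 12 of the 14 fits run (this one and its alternatives), and the member ranked 62 just missed the limit (adjusted p = 1.3e-07, edgeR quasi-likelihood). These floors cover counting error only.

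The 2 members lower in HD3pr than in DT40 were ranked 11 and 35. The member ranked 11 had 208 and 192 CPM in HD3dif, 8.27 and 10.3 CPM in HD3pr, and 27.5 and 30.0 CPM in DT40. HD3pr was lower than DT40 by a log2 fold change of −1.50 (SE 0.091, adjusted p = 4.4e-12, edgeR quasi-likelihood), and HD3dif was above both. The member ranked 35 had 40.7 and 40.7 CPM in HD3dif, 1.90 and 2.08 CPM in HD3pr, and 5.71 and 5.95 CPM in DT40. Its log2 fold change was −1.42 (SE 0.157, adjusted p = 5.9e-08, edgeR quasi-likelihood), close to the limit on p, and it was not called in 7 of the 14 fits, while the member ranked 11 was called in all 14. For both genes the highest level in HD3dif was set by the limits, and the lowest in HD3pr is what the class means. Nothing further is read from that order.

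The other 32 members did not pass both limits in either direction. Their medians were 25.7 CPM in HD3dif, 1.98 CPM in HD3pr and 1.69 CPM in DT40, and they held 68.4% of the members' summed level in DT40. In 13 of them the fitted log2 difference lay within 0.6 of 0. The most abundant of these in DT40 was the member ranked 10, with 242 ± 14.8 CPM in HD3dif, 21.8 ± 1.07 CPM in HD3pr and 30.7 ± 1.89 CPM in DT40 (SD, n = 2). Its log2 fold change was −0.36 (SE 0.072, adjusted p = 1.4e-04, edgeR quasi-likelihood). The member ranked 8 had 263 and 277 CPM in HD3dif, 24.5 and 23.2 CPM in HD3pr, and 25.9 and 24.8 CPM in DT40. Its log2 fold change was 0.05 (SE 0.066), and it was called in 0 of the 14 fits, in which it ran from −0.11 to 0.09. Before induction these 2 genes were within the limit of 0.6 of the lymphoid line, and in HD3dif they had 11.1 and 11.3 times the HD3pr level. The member ranked 26, with 63.9 and 54.0 CPM in HD3dif, 7.23 and 5.20 CPM in HD3pr and 10.7 and 11.5 CPM in DT40, had a log2 fold change of −0.70 (SE 0.139, adjusted p = 1.1e-04, edgeR quasi-likelihood) and missed the limit on p. At the other end, 7 of the 32 had a fitted difference beyond 2 on the log2 scale but at most 3.25 CPM in HD3pr, and did not pass the limit on p at this depth. At an adjusted p below 0.05 with no fold limit, 46 of the 62 members were higher and 9 lower in HD3pr. Among all genes tested, 44.5% were higher and 38.4% lower. The limits that chose the members did not cut that background, so nothing is read from the difference.

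**Figure D4:**
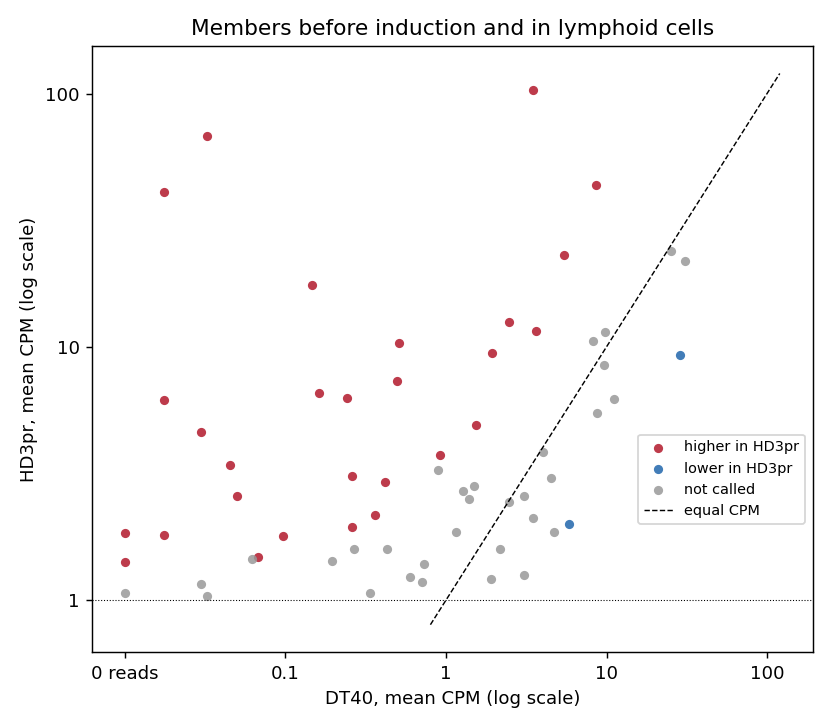
Mean CPM in HD3pr (vertical) against mean CPM in DT40 (horizontal) for the 62 members, both on log scales, with genes at 0 reads in DT40 drawn at the left and the dotted line at the minimum of 1 CPM asked of HD3pr. The 28 genes higher in HD3pr lie above the line of equal CPM, the 2 lower genes lie below it, and the 32 genes not called lie near it or close to the minimum.

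The fold of HD3dif over HD3pr is given for these classes as a description. It had a median of 12.6 among the 28 genes higher in HD3pr (8.40 to 45.0) and 11.2 among the 32 genes not called (8.08 to 131), and it was 20.5 and 21.5 for the 2 lower genes. No test was run on these folds, because they chose the members. The limit on DT40 also asks a larger fold of a member with more in DT40 than in HD3pr. Nothing is therefore read from the classes being alike or unlike in fold.

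HD3dif levels were at least 4 times those in DT40 by the limits, and 4.04 times in the lowest case. The ratio was below 10 for 9 members and 100 or more for 26, with genes at 0 in DT40 taken at their floor. Genes just outside the set show how much the single limits matter. Without the minimum in HD3pr 25 more genes would enter, which had less than 1 CPM before induction, and without the limit on DT40 8 more would enter, which the lymphoid line transcribes at 1 in 4 of the HD3dif level or more.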

How the data were processed

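Per the submitters' processing notes, the authors aligned reads to galGal4 with TopHat2 2.0.12 and Bowtie2 2.2.1 and deposited raw read counts per Ensembl gene (release 82), made with HTSeq for each of 6 RNA-seq libraries. The strand setting of the counting is not given in the sources used here, so values of genes that overlap another gene, or have a near-identical copy, are uncertain. Rows for reads without a gene were left out of totals. The members and lists were chosen with earlier results of these data known. Members were found on plain CPM. HBZ and TMEM8A were matched by counts in the 3 replicate-1 libraries within 0.5 reads plus 0.3%.

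HD3pr was tested against DT40 in 1 fit over all 6 libraries with edgeR 4.0.16 (quasi-likelihood, TMM) in R 4.3.3. The SE is the log2 fold change divided by the square root of F. On simulated data with 200 changed genes, the fit called 71% of 2-fold changes, 94% of 4-fold changes and 0 unchanged genes. The simulation changed fewer genes than were called here and gave every other gene the same mean level in all libraries. It also drew counts from the fit's negative binomial dispersion alone, without the added gene-by-gene variation that the quasi-likelihood test estimates. It therefore gives neither the share missed among the members nor the share of false calls in these data. Summaries used Python 3.11.15, numpy 2.4.6 and pandas 2.3.3. Alternatives were DESeq2 1.42.0, other factors, filters and limits, a replicate block, fits of 2 cell types and each library left out. The text names members by fixed ranks (level, fold, distance to the limit, difference from DT40), and further ranks were picked after values were seen. The 16 lists of pathway and cell type genes could not be matched to identifiers and gave no result. Backgrounds that share the limits on HD3pr and DT40 were added after values were seen. 5C, C-TALE and coverage files were not used here.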

Additional observations from a re-analysis of the deposited data

How the results depend on the processing

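The number of members was 62, and it was 27 with all reads as the total, 226 with a 4-fold and 16 with a 16-fold limit. Of the 62, 42 kept 8-fold with all reads as the total. The minima of 1 and 10 CPM are also stricter on that larger total. It was 49 with TMM-scaled CPM (48 shared), 51 with every pair of libraries past the limits, 70 without the limit on DT40, 87 without the minimum in HD3pr, and 61 to 68 with 1 library left out. Members higher in HD3pr than in DT40 numbered 28, and 46 at an adjusted p below 0.05 with no fold limit, 17 with only the 2 cell types compared (58 members tested), 26 to 36 with DESeq2, RLE factors, library totals, no filter or filterByExpr, and 18 to 25 with 1 library left out. The lowest of these, 18, came without HD3dif replicate 2, and all 18 were among the 28. Across the 14 fits, 17 members were higher in every fit that tested them. Members lower in HD3pr numbered 2, and 9 at an adjusted p below 0.05, 4 without a filter, 1 with only the 2 cell types compared and 1 to 2 with 1 library left out (1 without either HD3dif, either HD3pr or DT40 replicate 2). The replicate numbers mark no shared batch in the labels, and deviations of same-numbered replicates had correlations of −0.058 to 0.050. With a replicate block 24 members were higher, all among the 28, and 1 was lower. For ENSGALG00000003594 the difference of HD3pr from DT40, −0.12 on the log2 scale and not called, was −0.46 to 0.11 with 1 library left out, turning to 0.015 without HD3pr replicate 1 and 0.11 without DT40 replicate 2.

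Over all genes tested, 1306 were higher in HD3dif than in HD3pr and 2030 were lower. Higher genes numbered 4360 at an adjusted p below 0.05, 1968 with library totals (and 1395 lower), 2024 without a filter and 748 to 1615 with 1 library left out. Lower genes numbered 4279 at an adjusted p below 0.05 and 1273 to 2139 with 1 library left out. With all reads as the total, a choice made after seeing the data, the members held 0.321% of reads in HD3dif in place of 0.931%, since reads without a gene enter the total. The cause of the other shifts was not tested. Where 1 library was left in a cell type, it was assumed to vary like the others. The lists of pathway genes gave no result under any setting. Depth limits the members near 1 CPM in HD3pr, which had as few as 26 reads in a library.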
